A study of Caenorhabditis elegans with 6 samples.

Results

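The genes described here are the protein-coding genes of the X chromosome of Caenorhabditis elegans outside the large gene families. They were chosen by the coordinate in the row name of the deposited count table, which had to name chromosome X, and by symbol. Genes of the collagen (col-), yolk protein (vit-), hedgehog-related (grl-, grd-, wrt-, ptr-), C-type lectin (clec-), transthyretin-like (ttr-), proton pump (vha-), ribosomal protein (rpl-, rps-), histone (his-) and ule- families and of the Y62H9A and ZK813 clusters were left out. This gave 2698 of the 20189 genes in the table, after 91 of the 2789 X-linked genes had been left out by family. No measured value entered the choice. Of the 2698 genes, 2666 had an identifier in the Ensembl annotation of WBcel235, and all 2666 lie on X there.

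The samples were whole L4 hermaphrodites, the last larval stage, that were rpl-36A(P55Q)/mIn1 heterozygotes. One copy of rpl-36A, which encodes a component of the ribosome's large subunit, carried the P55Q change, and the other was on the balancer chromosome mIn1. Synchronized eggs were placed on NGM plates that held 500 µg/ml of the elongation inhibitor cycloheximide (CHX) and collected after 3 days, or on plates that held none and collected after 2 days. All were kept at 23 °C, and there were 3 samples per group. The series addresses how the transcripts of such animals differ when they reach L4 on the drug. Every animal carried the same altered allele over the balancer, and no animal of another genotype is compared here. Drug and age changed together, so their effects cannot be told apart. Whether the replicates are separate cultures is not stated in the labels, and p-values here cover only the spread between samples, which could be technical.

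X is the sex chromosome of this worm. Hermaphrodites carry it in more copies than males, and a condensin-based dosage compensation complex lowers transcription from X throughout their somatic cells. In germ cells X is largely silenced through much of their development, and genes used mainly by sperm or by the early germ line are rare on it, while genes of muscle, nerve and other somatic tissues are common there. In RNA from whole animals, the level of an X-linked transcript therefore mixes the tissues, and fewer cells of a type cannot be told apart from less RNA per cell.

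The libraries were shallow, with total counts between 313767 and 414781. Of the 2698 X-linked genes, 884 had no count in any sample, 1338 had counts but too few for a test, and 476 (17.6%) were tested. Of autosomal genes under the same exclusions, 29.2% were tested. CPM, the unit of level used below, is a count scaled to the library's TMM-adjusted size, and 3 counts corresponded to between 7.22 and 10.6 CPM. A gene was called higher or lower on CHX when its adjusted p in edgeR's quasi-likelihood test, corrected by Benjamini-Hochberg over all 5641 tested genes of the table, was under 0.05.

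X-linked genes outside these families took a smaller share of the messenger RNA counts in animals grown on CHX. They held 8.42, 8.21 and 7.35% of all counts when CHX was absent, and 6.45, 6.23 and 6.32% when it was present. The lowest sample without CHX stood above the highest sample with CHX, so the groups did not overlap. The means were 8.0 ± 0.566% and 6.33 ± 0.11% (SD, n = 3), a difference of -1.66 percentage points and a ratio of 0.792. The share of autosomal genes under the same exclusions was higher on CHX, 79 ± 0.215% against 74.6 ± 0.725%. Shares of 1 library add up to a fixed total, so the share of X also depends on what the other genes did.

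The loss of share lay in the better counted genes. The 18 genes with 1000 or more counts over the 6 samples went from 2.47 ± 0.143 to 1.74 ± 0.0696% of counts. The 80 genes with at least 300 and under 1000 counts went from 2.28 ± 0.165 to 1.69 ± 0.0281%, and the 216 genes with at least 100 and under 300 from 1.79 ± 0.162 to 1.46 ± 0.023%. In each of these 3 classes the groups did not overlap. The 409 genes with at least 30 and under 100 counts held 0.993 ± 0.0897 and 0.981 ± 0.0164%, the 431 genes with at least 10 and under 30 0.353 ± 0.0332 and 0.335 ± 0.00479%, and the 660 genes with at least 1 and under 10 0.105 ± 0.022 and 0.122 ± 0.00493%. In these thinly counted classes the groups overlapped. The 2222 untested genes together held 0.916 ± 0.107% of counts without CHX and 0.916 ± 0.0112% with it.

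**Figure D1:**
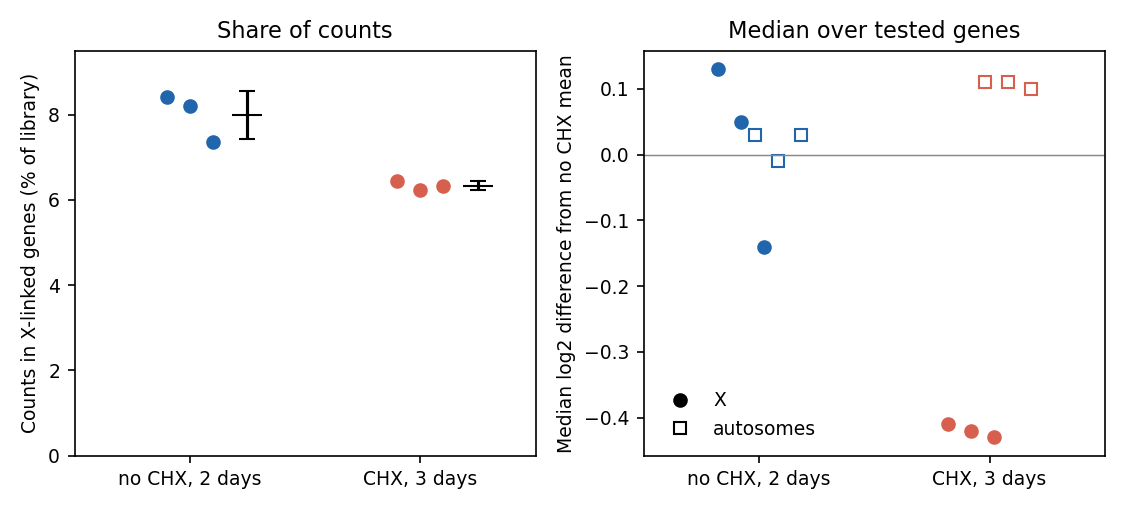
Share of counts in X-linked genes (left, percent of each library, mean and SD beside the points) and median log2 difference of tested genes from the mean without CHX (right) in the 6 samples, without CHX (2 days) and with CHX (3 days). The 3 samples with CHX sit between 6.23 and 6.45%, below all samples without it, and their X medians (filled circles) lie between -0.43 and -0.41 while their autosomal medians (open squares) lie between 0.10 and 0.11.

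Among the 476 tested X-linked genes, 21 were called higher on CHX and 122 lower. These are 4.41% and 25.6% of them, beside 10.3% higher and 14.9% lower of all 5641 tested genes and 529 higher and 617 lower of the 4889 tested autosomal genes. In 25.2% of all tested genes either call was made. Of the 476 X-linked genes, the CPM of the groups did not overlap for 37 that were higher and 161 that were lower. Of all 5641 tested genes this held for 1098 (19.5%) that were higher and 1142 (20.2%) that were lower. The median log2 fold change was -0.47 (quartiles -0.87 and -0.01) on X and 0.09 (quartiles -0.41 and 0.54) on the autosomes, and it was 0.02 over all tested genes. The fitted change was negative for 361 (75.8%) of the X-linked genes and for 45.2% of the autosomal ones. The 5 autosomes taken separately had medians between 0.05 and 0.11, with between 9.71 and 12% of genes higher and between 10.3 and 15% lower. No test of the difference between X and the autosomes was made, since genes are not replicates and the design has 3 samples per group. With library totals in place of TMM factors the median over all tested genes moved to 0.18, the median on X to -0.31, and the calls on X to 27 higher and 91 lower, against 15.1% higher and 10.7% lower of all tested genes. DESeq2 called 15 higher and 100 lower on X, against 7.34% and 11.8% of all tested genes, and limma-voom called 20 and 126, against 9.48% and 14.8%.

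**Figure D2:**
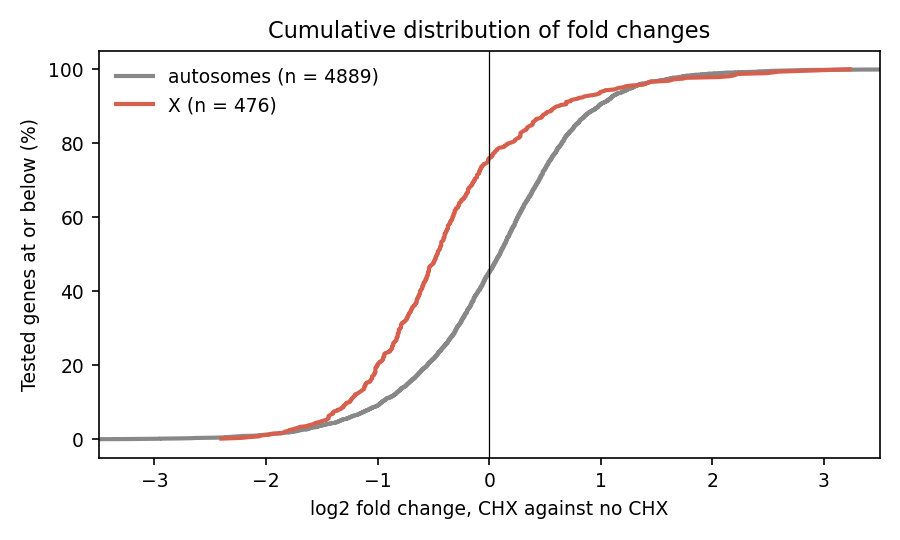
Cumulative share of tested genes (percent) against the fitted log2 fold change, CHX against no CHX, for 476 X-linked and 4889 autosomal genes. The X curve lies to the left of the autosomal one over most of the range and passes the zero line at 75.8%, where the autosomal curve is at 45.2%.

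The low-count filter bears on these counts, because a gene can pass it through the group in which it is high. Of the tested X-linked genes, 274 reached the minimum in all samples of both groups, and 9 of these were higher and 90 lower, with a median of -0.54. For the 3179 autosomal genes of this kind the numbers were 330 higher, 423 lower and a median of 0.04. Another 66 X-linked genes reached the minimum in all 3 samples without CHX only and 67 in all 3 with CHX only. By that route alone, 31 of the former were called lower and 12 of the latter higher, beside 192 of 404 and 198 of 840 autosomal genes of these kinds, shares that are near or above those on X. Thus 12 of the 21 higher calls rest on genes that were thinly counted without CHX. With no filter 1814 X-linked genes were tested and 33 were higher and 102 lower, which is 1.82% and 5.62% of them, against 4.40% and 5.30% of all genes then tested. The share called lower was then close to that of all genes, and the median on X was -0.22.

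The single samples showed the same order. The median over tested X-linked genes of log2(CPM + 1), less the mean of the samples without CHX, was 0.13, 0.05 and -0.14 when CHX was absent and -0.41, -0.42 and -0.43 when it was present. The autosomal medians were 0.03, -0.01 and 0.03 without CHX and 0.11, 0.11 and 0.10 with it. Replicates without CHX were spread more widely on X than replicates with CHX, and replicate 3 without CHX lay closest to the CHX samples.

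The fitted changes on X were more negative among abundant genes. Tested genes of the whole table were split into 5 classes of equal size by mean CPM. From the thinnest class to the most abundant, the X-linked medians were -0.29, -0.29, -0.53, -0.65 and -0.69, and the autosomal medians were 0.12, 0.17, 0.17, 0.10 and -0.11. The X median was thus below the autosomal one in all 5 classes, by between 0.40 and 0.75 on the log2 scale. Of the X-linked genes 7.81, 17, 18.4, 41.8 and 65.3% were called lower in these classes, beside 7.95, 8.06, 9.89, 11.9 and 26.5% of the autosomal genes. Depth sets how many genes can be called in a class, so percentages are compared only within one. Of the 10 lower calls on X in the thinnest class, 6, 5 and 5 were left without CHX replicate 2, CHX replicate 3 and no CHX replicate 2. In the next class 18 lower calls became 11 without CHX replicate 3, and in the middle class 19 became 10 to 12 without no CHX replicate 1 or any of the CHX replicates. Across the 476 genes the fitted change and mean CPM had a Spearman rho of -0.26, beside -0.0985 for autosomal genes, as a description of genes that share the same 6 libraries.

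**Figure D3:**
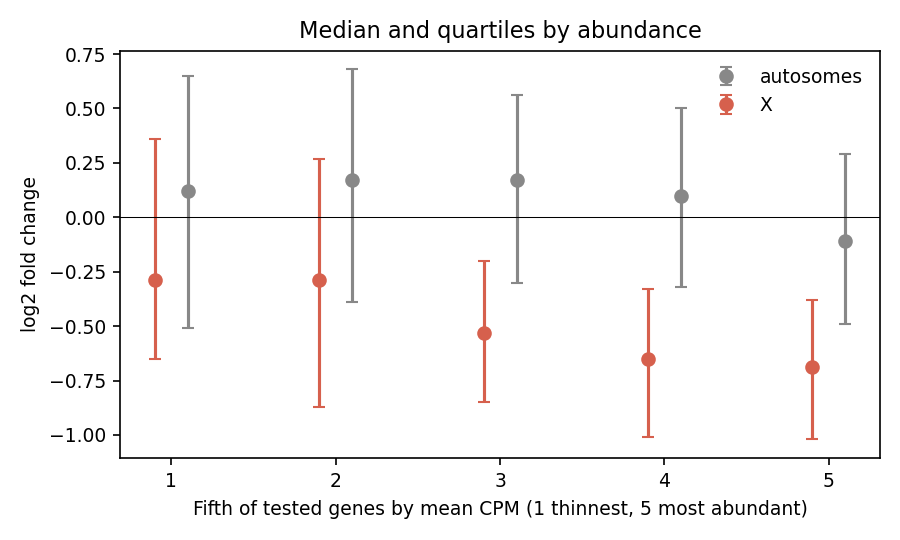
Median (points) and quartiles (bars) of the fitted log2 fold change, CHX against no CHX, of X-linked and autosomal genes in 5 classes of mean CPM over all tested genes. The X points run from -0.29 in the thinnest class to -0.69 in the most abundant and lie below the autosomal points in all 5.

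Position along X bore little relation to the changes. In 9 windows of 2 Mb by start coordinate, the medians ran from -0.37 (window 8) to -0.60 (window 9), and all 9 were below zero. The windows held between 36 and 71 tested genes, of which between 15.9 and 35.2% were lower and between 1.69 and 7.81% higher. Window 4, from 6 to 8 Mb, had the most lower calls, 25 of 71, and window 7, from 12 to 14 Mb, the smallest percentage, 7 of 44. Spearman's rho of the fitted change with the start coordinate was -0.0117, and that of neighbouring tested genes with each other was 0.0247, both descriptions across genes of the same libraries. Without no CHX replicate 1, the lower calls went from 14 to 9 in window 2 and from 14 to 9 in window 8, and without CHX replicate 3 they went from 11 to 7 in window 6.

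**Figure D4:**
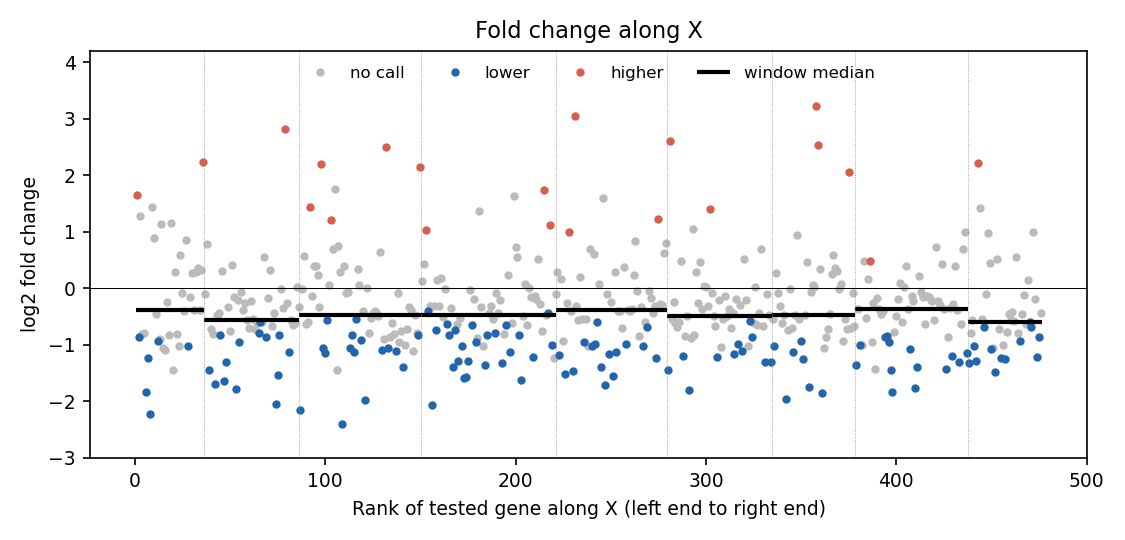
Fitted log2 fold change of the 476 tested X-linked genes against their rank along the chromosome, with genes called lower in blue, called higher in red and without a call in grey. Black bars mark the medians of 9 windows, all between -0.60 and -0.37.

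Neighbouring tested genes called lower formed 6 runs of 3 or more. With 25.6% of the 476 tested X-linked genes called lower, some neighbours share a call wherever they lie. Spearman's rho between neighbours was only 0.0247. Whether the runs exceed what that share gives was not tested, so they are listed as positions only. The run of most genes had 5, from 14703715 to 14792980 (WBcel235), and held F40E10.6, atrn-1, sucl-1 (a subunit of the mitochondrial succinyl-CoA ligase), Y16B4A.2 and tatn-1. At its end tatn-1, the tyrosine aminotransferase that starts tyrosine breakdown (14791008 to 14792980), had 242.6, 238.9 and 233.3 CPM without CHX and 78.3, 46.7 and 74.6 CPM with it. Its groups lay far apart, with a 3.56-fold fall (log2 fold change -1.83, SE 0.27, adjusted p 6.08e-06). In the same run F40E10.6, atrn-1 and sucl-1 had adjusted p between 0.0231 and 0.036. Each of these 3 lost its call under 4 to 8 of 15 alternative settings, and C05G5.5 overlaps sucl-1 on the opposite strand.

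A run of 4 on the left part of X held mct-4, a monocarboxylate transporter gene, act-4, a muscle actin gene, calu-1, for the calcium-binding secretory pathway protein calumenin, and lfi-1. The call of lfi-1 was lost under 5 of 15 alternatives and that of mct-4 under 1, without CHX replicate 1. On the opposite strand ZC8.6 overlaps lfi-1. The levels of calu-1 were 642.5, 707.4 and 622.2 CPM without CHX and 323.8, 287.7 and 298.3 CPM with it, a 2.17-fold fall (log2 fold change -1.12, SE 0.17, adjusted p 8.39e-06). All 3 samples with CHX were below all 3 without. The other run of 4 held cpr-6, F38B6.4, slc-25A10, for a mitochondrial dicarboxylate carrier, and mdl-1, for a Mad-like transcription factor, which fell 2.42-fold (adjusted p 3.22e-05). The call of slc-25A10 was lost under 2, without no CHX replicate 3 or without CHX replicate 2. The 3 runs of 3 were abu-12, aagr-4 and ugt-46, then cgr-1, C18B2.3 and C18B2.5, and then asb-2, for a subunit of the mitochondrial ATP synthase, ncr-1, related to the cholesterol transporter NPC1, and pdi-2, for a protein disulphide isomerase. Of these ncr-1 lost its call under 9 of 15 alternatives, and C18B2.3 is overlapped by C18B2.4 on the opposite strand. There were also 14 pairs of neighbours called lower and 1 pair called higher, and untested genes lay between the members of all 6 runs of 3 or more.

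The only neighbouring genes both called higher were R04D3.2 and R04D3.3, both on the minus strand (R04D3.2 at 13285122 to 13286633 and R04D3.3 at 13288917 to 13290631). R04D3.3 had 45.9, 30.6 and 56.6 CPM without CHX and 274.2, 220.3 and 274.2 CPM with it. Every sample with CHX was several times above every sample without, with a fitted 5.80-fold rise (2.54 on the log2 scale, SE 0.29, adjusted p 1.42e-07). R04D3.2 was counted 4, 0 and 0 times without CHX and 13, 23 and 16 times with it. The ratio of its summed counts, scaled to library size, was 10 with an exact 95% counting interval of 3.69 to 38.2, which covers counting error only (adjusted p 0.00283). No role is stated here for either gene.

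The other large rises were in genes with few counts without CHX. R09F10.8 was counted 3, 2 and 2 times without CHX and 18, 22 and 38 times with it (count ratio 8.6, interval 3.98 to 22.1, adjusted p 0.0002). The gene chtl-1, for a choline transporter-like protein, was counted 1, 4 and 4 times without CHX and 32, 17 and 18 times with it (count ratio 5.75, interval 2.85 to 13.1, adjusted p 0.00201). In both genes every sample with CHX was above every sample without, which the rule that picked them required. Summed counts of tag-52 were 10 and 94, of ZC373.2 10 and 81, and of F02E8.4 16 and 96, and their adjusted p ran from 0.000475 to 0.00221. The calls of these 5 genes and of the R04D3 pair held under all 15 alternatives. For inx-3, an innexin that forms gap junctions, summed counts were 11 and 65 (adjusted p 0.00971), the gene F22F4.9 overlaps it on the opposite strand, and the call was lost without no CHX replicate 2 or without CHX replicate 2 (adjusted p up to 0.0535).

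**Figure D5:**
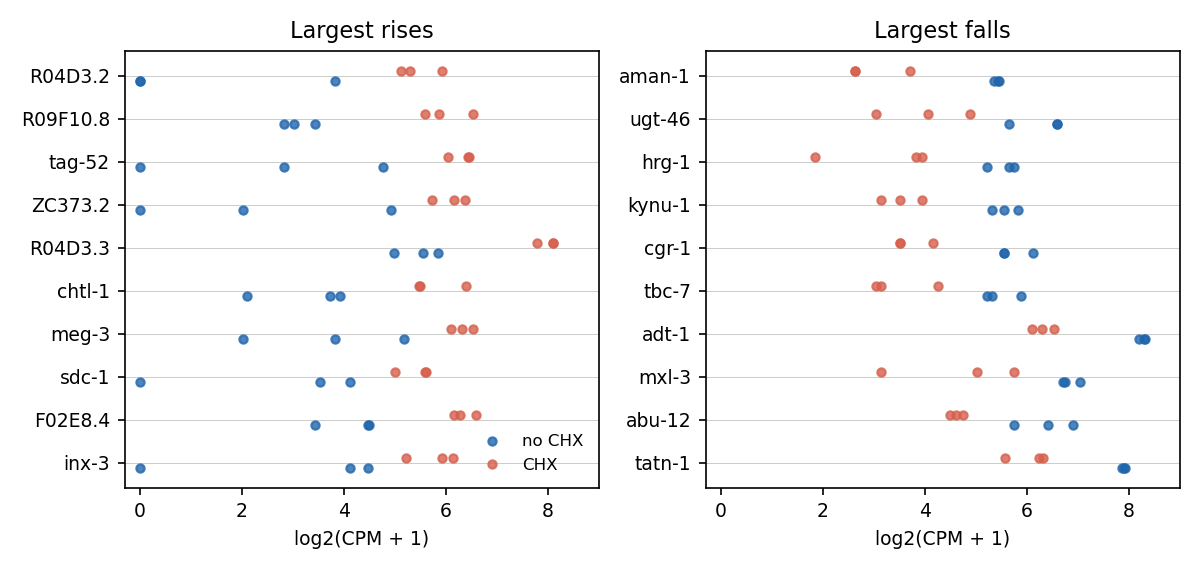
log2(CPM + 1) in each sample of the 10 X-linked genes with the largest fitted rises (left) and the 10 with the largest fitted falls (right) among called genes whose groups do not overlap. The rising genes R04D3.2, tag-52, ZC373.2, inx-3 and sdc-1 lie at 0 in some sample without CHX, whereas the falling genes adt-1, mxl-3 and tatn-1 lie above 6 in every sample without it.

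Both X-linked genes of the germ line list were higher on CHX. They are meg-1 and meg-3, whose proteins organise P granules, the RNA granules of germ cells and early embryos. The levels of meg-1 (13927036 to 13929634) were 127.8, 73.5 and 81.3 CPM without CHX and 396.9, 474.3 and 307.9 CPM with it, with no overlap. It rose 4.16-fold (log2 fold change 2.06, SE 0.24, adjusted p 2.07e-07). For meg-3 the summed counts were 15 and 94, a fitted 4.68-fold rise (SE of the log2 fold change 0.51, adjusted p 0.00167). Of the 31 tested autosomal genes of that list 10 were higher and 1 was lower, beside 10.3% and 14.9% of all tested genes. The number higher was 4 without CHX replicate 3 and 6 with DESeq2 or without no CHX replicate 1, CHX replicate 1 or CHX replicate 2.

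Germ cell markers on the autosomes differed between the groups as well. Of 36 oocyte and eggshell genes none is on X, 34 were tested, and 28 were higher on CHX and none lower, with a summed level of 8238 to 10946 CPM without CHX and 21002 to 22509 CPM with it. Of 53 sperm genes none is on X, 26 were tested, and 16 were lower, or 10 without CHX replicate 2 or with library totals. Their summed level was 3500 to 3588 CPM without CHX and 1568 to 2037 CPM with it, and msd-1 and msd-3 were at 0 in all samples. The germ line list summed to 8045 to 8551 CPM and 10180 to 10609 CPM. For comparison, 10.3% of all tested genes were higher and 14.9% lower. With the members of these 3 lists taken out of both sides, 19 X-linked genes were higher and 122 lower, and the difference between the X and autosomal medians was -0.56 as before. The lists held only 2 of the 476 tested X-linked genes, and 34, 26 and 31 of the 4889 tested autosomal genes. The medians could thus hardly move, and nothing about germ cells is concluded from this. The part of other germ cell transcripts in the level of X-linked genes was not tested.

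Genes of the dosage compensation machinery and of the count of X chromosomes were looked at because they act on X. Of the 6 on X, sdc-1, for a zinc finger protein needed for sex determination and dosage compensation, was counted 5, 0 and 3 times without CHX and 18, 12 and 20 times with it. Its groups did not overlap, though it reached the minimum count of the filter only with CHX. The count ratio was 4.83 with an interval of 2.27 to 11.8 (adjusted p 0.0159). The call was lost without no CHX replicate 2, CHX replicate 1 or CHX replicate 3 (adjusted p up to 0.0896). The gene sdc-2, which targets the complex to X in hermaphrodites, had 45.9, 55.1 and 35.4 CPM without CHX and 49.6, 23.3 and 16.8 CPM with it, which overlap (log2 fold change -0.61, SE 0.49, adjusted p 0.384).

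The remaining 4 were not tested. The master switch xol-1, which is active in male embryos, had 0 counts in all samples. The X-signal genes were thin, with summed counts of 0 and 2 for fox-1, of 19 and 29 for sex-1, and of 4 and 15 for ceh-39 (count ratio 2.9, interval 0.922 to 12). Among 10 tested autosomal genes, which include the condensin subunits dpy-26, dpy-27, dpy-28, mix-1 and capg-1 and the demethylase dpy-21, edgeR called 0 at an adjusted p under 0.05 and 0 at an unadjusted p under 0.05. DESeq2 called 0 by either threshold, and limma-voom called 0 adjusted and 3 higher unadjusted. All 10 fitted log2 fold changes were positive, from 0.24 (SE 0.31) for set-1 to 0.64 (SE 0.42) for dpy-27, with a median of 0.51. With library totals 1 of them was called higher.

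Where none is given as higher or lower for a list, edgeR at an unadjusted p under 0.05 and DESeq2 and limma-voom at either threshold gave 0 as well, except in the translation list, where edgeR and limma-voom each had 1 autosomal gene higher at an unadjusted p under 0.05. Muscle genes were the group with the most X-linked genes called lower. Of 13 tested, 10 were lower on CHX and none higher, with a median of -0.82, and without CHX replicate 3 the number was 6. Beside this, 25.6% of all tested X-linked genes and 14.9% of all tested genes were lower. In the most abundant class, which holds act-4, tnt-2, mup-2 and others of this list, 65.3% of X-linked genes were lower. Whether muscle genes differ from other genes of like abundance was not tested. Of 35 tested autosomal muscle genes 20 were lower and 1 higher, with a median of -0.63, and between 10 and 13 were lower with library totals, with no filter, or without no CHX replicate 2, CHX replicate 1 or CHX replicate 3. The level of the whole list, X and autosomes, summed to 24621 to 32244 CPM without CHX and 18330 to 19191 CPM with it.

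The X chromosome carries several troponin genes, and 5 of them were called lower. Troponin makes contraction depend on calcium. Among the troponin T genes, tnt-2 (8721557 to 8723550) had 1085.1, 1136.2 and 862.5 CPM without CHX and 451.8, 596.1 and 478.7 CPM with it, a 2.02-fold fall (log2 fold change -1.02, SE 0.16, adjusted p 1.24e-05). Its paralogs tnt-3 (2.01-fold, adjusted p 0.00372) and mup-2 (1.56-fold, adjusted p 0.00546) were also lower. In these 3 genes no sample with CHX reached a sample without it. The troponin I gene tni-1 fell 2.16-fold (adjusted p 0.00145), while the call of its paralog unc-27, with 296.9 to 529.8 CPM without CHX and 246.2 to 321.2 CPM with it, was lost under 8 of 15 alternatives and its groups overlapped.

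The actin gene act-4 (4960553 to 4964413, 4 exons) had the highest level per length among the 392 tested X-linked genes whose coding length is known, a mean of 3000.6 CPM per kb of coding sequence. It had 5494.2, 3953.6 and 3506.7 CPM without CHX and 2467.8, 2441.6 and 2443.9 CPM with it. The samples with CHX were nearly equal and all lower, a 1.76-fold fall (log2 fold change -0.82, SE 0.12, adjusted p 1.09e-05). Coding sequences of the worm's actin genes are nearly the same and the treatment of shared reads is not given, and M03F4.6 overlaps act-4 on the opposite strand, so its counts are uncertain. The same holds for the myosin light chain genes mlc-1 and mlc-2, which were lower by 1.60-fold and 1.52-fold with calls lost under 6 and 4 of 15 alternatives. The remaining lower calls were dim-1, which stabilises the attachment of the contractile apparatus (2.27-fold, adjusted p 0.000106), and tag-18 (2.18-fold, adjusted p 0.011). The call of tag-18 was lost without no CHX replicate 1 or without CHX replicate 3 (adjusted p up to 0.134), and aex-4 overlaps it on the opposite strand. No call was made for the pharyngeal myosin myo-2 (log2 fold change -0.31, SE 0.27), for the calsequestrin csq-1 (-0.40, SE 0.24) or for unc-97 (-1.0, SE 0.40).

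Of 12 tested X-linked genes for the intestine and digestion, 6 were lower and none higher, with a median of -0.65, beside 15 lower and 4 higher of 31 autosomal ones with a median of -0.51. The number on X was 3 with DESeq2, with library totals, without CHX replicate 1 or without CHX replicate 2. Beside this, 25.6% of all tested X-linked genes and 14.9% of all tested genes were lower. In the most abundant class, where cpr-6 and asp-3 lie, 65.3% of X-linked genes were lower. Lysosomal proteases led the intestine and digestion list. The cathepsin B-like gene cpr-6 (6607203 to 6609045) had 2461.9, 1901.8 and 2485.1 CPM without CHX and 1311.0, 1140.5 and 914.1 CPM with it, a 2.03-fold fall (log2 fold change -1.02, SE 0.14, adjusted p 1.73e-06). The aspartyl protease gene asp-3 had 2045.6, 1831.4 and 2113.9 CPM without CHX and 1256.1, 1293.4 and 1279.7 CPM with it, a 1.56-fold fall (adjusted p 0.000165). In both genes the groups were well apart, whereas the related asp-4 gave no call (log2 fold change 0.05, SE 0.21). The intermediate filament genes ifd-1 and ifp-1, the peptide transporter gene pept-1 and the saposin-like gene spp-5 were the other 4 lower calls, with adjusted p from 0.0135 to 0.0458, and they were lost under 2, 6, 6 and 12 of 15 alternatives. The groups of pept-1 overlapped.

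X-linked genes of basement membranes, the sheets of matrix that underlie tissues, were lower in 3 of 5 tested, and none was higher. The median was -0.69, beside 11 lower and none higher of 16 autosomal genes with a median of -0.74. The autosomal number was 7 with library totals or without no CHX replicate 1, no CHX replicate 2 or CHX replicate 1. The type IV collagen gene let-2 had 813.0, 747.2 and 586.8 CPM without CHX and 462.2, 466.6 and 399.3 CPM with it, a 1.62-fold fall (adjusted p 0.00202). The hemicentin gene him-4, overlapped by F15G9.5 on the opposite strand, and the dystroglycan gene dgn-1 were the other lower calls, at 1.62-fold (adjusted p 0.014) and 2.31-fold (adjusted p 0.0227). The lower calls on X numbered 1 without no CHX replicate 2 or without CHX replicate 3. Beside these, 25.6% of all tested X-linked genes were lower, and 65.3% of those in the most abundant class, where let-2 and him-4 lie. In the epidermis and cuticle list 1 of 7 was lower on X, the intermediate filament gene mua-6 (2.42-fold, adjusted p 0.00108), with a median of -0.19, beside 22 lower and 1 higher of 39 autosomal genes. The share lower on X in this list is near the 14.9% of all tested genes.

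Nerve genes are numerous on X but were too thin here. Of 20 in the list 17 could not be tested. Of the 3 tested, the calcium channel gene unc-2 was lower (39 and 16 summed counts, adjusted p 0.0379) with a call lost under 12 of 15 alternatives, and unc-18 and the junction scaffold gene dlg-1 gave none.

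In central carbon metabolism 2 of 9 tested X-linked genes were lower and none higher, with a median of -0.56, a share near the 25.6% of all tested X-linked genes and the 14.9% of all tested genes that were lower, beside 13 lower (8 without CHX replicate 1) and 1 higher of 42 autosomal genes. The aconitase gene aco-1 had 629.4, 496.1 and 512.6 CPM without CHX and 274.2, 326.6 and 228.5 CPM with it, a 1.98-fold fall (log2 fold change -0.98, SE 0.18, adjusted p 0.000178). No sample with CHX reached the range without it. The flavoprotein subunit gene of respiratory complex II, sdha-1, fell 1.93-fold (adjusted p 0.00164). The glyceraldehyde-3-phosphate dehydrogenase genes gpd-2 and gpd-3, which are nearly the same in sequence, gave no call (log2 fold changes -0.71, SE 0.33, and -0.56, SE 0.28).

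Stress and detoxification genes on X went both ways, with 2 higher and 2 lower of 13 tested and a median of 0.09, beside 1 higher and 7 lower of 27 autosomal genes. Of all tested genes 10.3% were higher and 14.9% lower, and the shares on X in this list are near these. The number higher on X was 4 without no CHX replicate 2 and 1 with DESeq2 or without any other sample but CHX replicate 2. The ABC transporter gene mrp-4 had 193.4, 125.6 and 233.3 CPM without CHX and 415.2, 489.9 and 377.7 CPM with it, with a fitted 2.33-fold rise (1.22 on the log2 scale, SE 0.21, adjusted p 6.82e-05). On the opposite strand F21G4.1 overlaps it. Its relative mrp-3 had 134.4, 150.1 and 106.1 CPM without CHX and 49.6, 51.8 and 74.6 CPM with it, a 2.21-fold fall (adjusted p 0.00784). Both genes had groups that did not overlap. The other 3 tested X-linked genes of this transporter class, mrp-1, mrp-2 and mrp-5, gave no call, with log2 fold changes of 0.89 (SE 0.38), 1.43 (SE 0.67) and 0.09 (SE 0.22), and mrp-6 was not tested. The P-glycoprotein gene pgp-5 was higher (24 and 82 summed counts, adjusted p 0.0247, call lost under 5 of 15 alternatives). The chaperone gene hsp-3, for a BiP of the endoplasmic reticulum, was lower by 1.32-fold (adjusted p 0.0128) with a call lost under 5 of 15.

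In the remaining lists 1 X-linked gene each was lower, where 25.6% of all tested X-linked genes were. Of 4 tested translation genes it was eef-1A.2, an elongation factor gene (1.35-fold, adjusted p 0.0218, lost under 5 of 15 alternatives) whose counts are uncertain because a near-identical copy exists, beside 5 lower and none higher of 44 autosomal genes. The autosomal number was 3 with DESeq2, library totals or no filter or without no CHX replicate 3 or CHX replicate 2, and 1 gene was higher with library totals or without no CHX replicate 3. The share lower, 5 of 44, is near the 14.9% of all tested genes. Of 5 tested genes of ligands and growth factor pathways it was the kinase gene sgk-1 (2.02-fold, adjusted p 0.0137, lost under 3). Beside it, 7 of 14 autosomal genes were higher and 1 lower, where 10.3% of all tested genes were higher. In the latter list the X median was -0.63 and the autosomal median 0.75, a difference that was not tested, and leaving out 1 sample left between 3 and 4 higher on the autosomes for 5 of the 6 samples.

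Several of the 10 largest fitted falls on X were in thinly counted genes. The alpha-mannosidase gene aman-1 was counted 13, 13 and 12 times without CHX and 2, 2 and 5 times with it (count ratio 0.183, interval 0.0778 to 0.385, adjusted p 0.00581). The UDP-glucuronosyltransferase gene ugt-46 had 95.1, 94.9 and 49.5 CPM without CHX and 28.7, 15.6 and 7.22 CPM with it, a 4.65-fold fall (adjusted p 0.00109). In both genes the groups did not overlap, which the rule that picked them required. The haem transporter gene hrg-1 (42 and 12 summed counts) and the kynureninase gene kynu-1 (43 and 13) fell 4.43-fold and 4.18-fold, each with a call lost when 1 sample was left out (CHX replicate 2, adjusted p 0.0684, and no CHX replicate 1, adjusted p 0.0521). The RabGAP gene tbc-7 (41 and 13 summed counts) fell 3.95-fold and lost its call without any of 3 samples, no CHX replicate 2, CHX replicate 1 and CHX replicate 3.

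Better counted were adt-1 and F09B12.3. The ADAMTS metalloprotease gene adt-1 (12678832 to 12689279), whose product is secreted, had 295.0, 312.4 and 318.2 CPM without CHX and 67.9, 77.8 and 91.4 CPM with it. Samples within a group differed little, and the fall was 3.88-fold (log2 fold change -1.96, SE 0.23, adjusted p 3e-07). F09B12.3 had 698.2, 517.6 and 569.1 CPM without CHX and 188.0, 163.3 and 175.6 CPM with it, a 3.38-fold fall (log2 fold change -1.76, SE 0.19, adjusted p 5.97e-08). It had the smallest adjusted p of all X-linked genes named here. F09B12.3 is not among the 10 largest falls. The remaining genes among those 10 were tatn-1, described above, the Max-like transcription factor gene mxl-3 (3.64-fold, adjusted p 0.0012), cgr-1, for a lipid-binding CRAL-TRIO domain protein (4.15-fold, adjusted p 0.00514), and abu-12 (3.59-fold, adjusted p 0.00185), with calls kept under all 15 alternatives.

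Of the 476 tested X-linked genes, 392 have a known coding length and could be ranked by CPM per kb of coding sequence, and genes such as cpr-6 and hsp-3 could not. Among the 10 with the highest values of those 392, 8 were lower, none was higher and 2, C16B8.3 and F47B7.1, gave no call (log2 fold changes -0.34, SE 0.19, and -0.65, SE 0.27). In this ranking act-4 and asp-3 were followed by C34E7.4, with a mean of 871.5 CPM per kb, the galectin gene lec-9, with 849.3, and the lysozyme gene ilys-5, with 768.3. C34E7.4 fell 2.38-fold (adjusted p 8.12e-07), lec-9 2.32-fold (adjusted p 5.72e-05) and ilys-5 2.45-fold (adjusted p 6.26e-06), all without overlap between groups. The other 3 lower genes were mlc-2, unc-27 and mup-2. For comparison, 47 of the 72 tested X-linked genes (65.3%) in the most abundant class by mean CPM were lower. A high share of lower calls is thus not particular to these 10 genes.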

How the data were processed

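Messenger RNA was measured in 6 samples, 3 per group, grouped by their titles. Trizol extraction, removal of ribosomal RNA with RNase H and library preparation with a SMARTER kit are given per the labels' protocols. The authors deposited raw counts per gene in 1 table, with coordinates in its row names, per the file headers. The genome build WBcel235 and the program DESeq2 are listed by the submitters' processing notes. How reads were aligned, counted by strand and assigned when shared is not given in the sources used here, so reads of overlapping genes and near-identical copies cannot be told apart. Counts without molecular identifiers are not independent molecules, and counting intervals and the floor of 3 counts cover counting error only.

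The tests used edgeR 4.0.16 in R 4.3.3: filterByExpr (minimum count 10, minimum total 15), TMM factors, robust quasi-likelihood fits and Benjamini-Hochberg adjustment over all 5641 tested genes, threshold 0.05. The common biological coefficient of variation was 19%. Standard errors are the absolute log2 fold change over the square root of F. The test was also run on simulated counts in which 200 genes were changed. It called 3 of 67 changes of 1.5-fold, 30 of 67 of 2-fold and 56 of 66 of 4-fold, with 7 false calls. Most changes of 1.5-fold were thus missed in the simulation. The data gave 1419 calls, many more than the 200 genes changed there. The p needed for a call therefore differed, and these rates need not hold for the data. A gene without a call is not shown to be unchanged. Alternatives used other scalings and filters, DESeq2 1.42.0, limma-voom (limma 3.58.1), a replicate block and left out each sample. Symbols came from the table and a name table that matched 19878 identifiers. Ensembl's WBcel235 annotation gave a coding length for 2384 of the 2698 X-linked genes. Figures were drawn with matplotlib 3.10.9. No sequences are shown.

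Genes were named by a rule: the 10 largest rises and falls (called, mean CPM 10 or more, groups apart), the 10 with most CPM per kb, up to 4 per list, the dosage compensation list, the smallest p per 2 Mb window, members of runs of 3 or more, and the smallest p per class of shared symbol prefix. Other genes were named after their values were seen. The genes, lists and rules were chosen with earlier results of these data known, so lists are described by counts and medians without a test.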

Additional observations from a re-analysis of the deposited data

How the results depend on the processing

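The excess of lower over higher calls among X-linked genes kept its direction under every alternative run. Leaving out 1 sample at a time gave between 15 and 25 higher and between 88 and 126 lower calls, medians from -0.37 to -0.51, differences from the autosomal median from -0.46 to -0.59, and differences in the share of counts from -1.45 to -1.99 percentage points. Library totals moved the X median from -0.47 to -0.31. With no low-count filter the higher calls went from 21 to 33, the median to -0.22 and the difference from the autosomal median from -0.56 to -0.28. With a minimum of 10 CPM in 3 samples that difference was -0.45. With a mean of at least 50 CPM, chosen after seeing the data, there were 9 higher calls, the median was -0.59 and the difference -0.66. Without the 10 most abundant X-linked genes, also chosen after seeing the data, the share of counts differed by -1.12 points in place of -1.66. The cause of these shifts was not tested.

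Of 60 called genes among those the rule named, 41 were called under every one of the 15 alternatives that gave a value. Of all called X-linked genes, 13 of 21 higher and 67 of 122 lower were called under every alternative that gave a value. Among the 70 tested genes that the rule named, the sign turned only in the uncalled genes dlg-1 and sma-9. The fitted change of dlg-1 was -0.08, but 0.07 with library totals and from -0.29 to 0.24 with 1 sample left out. That of sma-9 was 0.02, but -0.02 with autosomal TMM factors and from -0.21 to 0.28 with 1 sample left out. Same-numbered samples did not deviate together (correlations -0.0471, -0.0329 and -0.0109), so the numbers were not taken as pairs. With the replicate number as a block, 18 genes were higher and 23.7% of the tested ones lower. Depth limits the thin genes, since 1338 X-linked genes had counts but no test.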

Other observations

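Among the tested X-linked genes, the median number of exons was 6.5 for genes called higher, 9 for genes called lower and 9 for genes without a call. The median coding length was 1874, 1527 and 1752 bases in the same order, over the genes with a known length (16, 93 and 283). Genes on the plus strand made up 33.3, 42.6 and 48.0%. The median of mean CPM was 48.1, 145.0 and 55.9, so the lower calls lay among better counted genes. No test was made of these differences, and the genes called higher number only 21.

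Of the 91 X-linked genes of the families left out, 40 were tested, 8 of them higher and 18 lower on CHX, with a median log2 fold change of -0.68. These 91 genes held 1.99, 1.71 and 1.79% of counts without CHX and 1.29, 1.78 and 1.35% with it, and the groups overlapped. With them included, 29 X-linked genes were higher and 140 lower.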
